A study of Mus musculus with 52 samples.

Results

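The 10 genes described here encode the subunits of the NF-kappaB transcription factors and the proteins that restrain them: Nfkb1, Nfkb2, Rel, Rela, Relb, Nfkbia, Nfkbie, Nfkbiz, Tnfaip3 and Bcl3. They were taken from the 57010 genes of the count table by their symbols, and each symbol matched 1 gene and passed the filter on low counts in all 4 materials. The materials sequenced were whole tumor, CD45+Ly6G- cells sorted out of tumors, lymph node and blood. All came from hCD40tg mice, which carry human CD40, bearing MC38-CEACAM5 tumors, a colon carcinoma line that carries the human antigen CEACAM5. The mice received vehicle, a CD40 antibody (CD40 mAb) or the bispecific antibody ATOR-4066, whose arms bind CD40 and CEACAM5. The labels do not state strain background, age, sex, dose, sampling time or the promoter of the transgene. The libraries compared for vehicle, CD40 mAb and ATOR-4066 numbered 4, 3 and 3 in sorted cells, 4, 5 and 4 in tumor, 4, 4 and 5 in lymph node, and 5, 5 and 4 in blood, which is 50 of 52 libraries.

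NF-kappaB proteins bind DNA as dimers of Rel family subunits. In a resting cell the dimers are held in the cytoplasm by inhibitor proteins of the IkappaB family, and a signal from receptors such as CD40, the TNF receptors or the Toll-like receptors activates the IKK kinases, which mark the inhibitor for destruction and free the dimer. Several of the freed dimer's target genes encode its own inhibitors, so that transcripts of Nfkbia and Tnfaip3 are widely used as readouts of recent activity, and CD40, present on B cells, dendritic cells and macrophages, also drives the slower non-canonical branch through Nfkb2 and Relb.

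The promoter of Nfkbia, which encodes the main inhibitor IkappaBalpha, is shown because this gene carried the treatment effect seen in both sorted cells and whole tumor. The sequence is the 250 bases before the RefSeq start on GRCm38.p6, chr12:55492648-55492897, minus strand, and the capitals mark the kappaB consensus, a motif of 10 letters searched on both strands, whose first base lies 29 bases before the start.
Nfkbia: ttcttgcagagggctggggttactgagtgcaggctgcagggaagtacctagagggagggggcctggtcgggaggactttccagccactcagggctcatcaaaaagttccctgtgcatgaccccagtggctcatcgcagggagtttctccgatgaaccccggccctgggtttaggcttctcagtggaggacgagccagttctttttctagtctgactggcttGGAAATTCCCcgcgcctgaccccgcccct

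RefSeq promoter windows were held for 7 of the 10 genes, with 10 starts among them, and 7 of these 10 windows, from 5 genes, contained the motif. Over all 32851 promoters of the same length 1281 contained it, which is 3.899 percent, and 162, or 0.4931 percent, contained it at least 2 times. The matches of 4 other genes are shown with their flanks so that their letters can be compared with that of Nfkbia. They are from Tnfaip3 at chr10:19015517-19015544 (first base 125 before the start) and chr10:19015411-19015431 (12 before), both minus strand. Another is from Nfkbie at chr17:45555585-45555612, plus strand (106 before). The match of Rel is at chr11:23771042-23771070, minus strand (92 before). Those of Nfkb2 are at chr19:46304689-46304717 (39 before), chr19:46304717-46304736 (11 before) and chr19:46305696-46305723 (225 before a later start), plus strand. In Rel and in the first Nfkb2 window 2 overlapping matches fill 11 letters.
Tnfaip3 far match: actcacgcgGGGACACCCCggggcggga
Tnfaip3 near match: atttccatcGGAAATCCCCct
Nfkbie: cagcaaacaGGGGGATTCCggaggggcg
Rel: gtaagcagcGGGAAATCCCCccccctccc
Nfkb2 first match: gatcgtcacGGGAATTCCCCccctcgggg
Nfkb2 near match: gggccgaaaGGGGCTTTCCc
Nfkb2 later start: ggtattttcGGGACTTTCCtaagcagca
A further Nfkb2 window held 1 match, and the windows of Rela and Bcl3 and of a second Tnfaip3 start held none. A match of letters describes these windows and is not a measured binding site.

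Total counts, rounded, were 30200000 to 47400000 per library in sorted cells, 47400000 to 67600000 in tumor, 46300000 to 138500000 in lymph node and 33500000 to 44100000 in blood. The 10 genes had between 39 and 49919 counts in a library. Haemoglobin genes took 69.8 to 88.2 percent of the blood counts and at most 0.602 percent elsewhere. A pair of libraries went against their labels and were left out. The library labelled tumor, ATOR-4066 replicate 3 had 5350.3 counts per 1000000 (CPM) summed over 8 B cell markers, where its group otherwise held 35.9 to 80.4, and the library labelled lymph node, vehicle replicate 3 had 21.9, where its group otherwise held 3822 to 6351. The sort removes Ly6G+ neutrophils. The neutrophil gene Ngp was listed at 0 in 10 of 10 sorted libraries, Camp in 9, Ly6g and S100a9 in 6, Cxcr2 in 3 and S100a8 in 2. The whole neutrophil list still summed to 167 to 267 CPM in vehicle sorted cells, above the 29.0 to 42.1 of vehicle tumors. No label says that replicates are separate animals, so p-values measure the spread between these libraries.

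In vehicle mice the level of each gene was set side by side in the 4 materials, in CPM scaled over all 50 libraries. Haemoglobin genes took 69.8 to 76.0 percent of the counts in vehicle blood, so the place of blood in each order rests on this scaling. Levels on unscaled library totals were not compared. Nfkb1, the precursor of a DNA-binding subunit that lacks an activation domain, was highest in sorted cells at 180.3 ± 22.2 (SD, n = 4). It was followed by blood at 148 ± 10.4 (n = 5), lymph node at 100.4 ± 8.89 (n = 4) and tumor at 78.8 ± 2.93 (n = 4). No neighbours in that order overlapped, although the lowest sorted library (158.3) and the highest blood library (157.7) nearly met. Rela, the main activating subunit, spanned a narrower range, from 69.7 ± 9.01 (n = 4) in sorted cells through 58.2 ± 5.35 (n = 5) in blood and 46.7 ± 1.30 (n = 4) in lymph node to 46.02 ± 1.93 (n = 4) in tumor. Sorted cells and blood overlapped, as did lymph node and tumor. Rel, the lymphoid and myeloid subunit c-Rel, was highest in blood at 96.0 ± 17.3 (n = 5) and lowest in tumor at 13.1 ± 1.89 (n = 4). Sorted cells at 50.6 ± 5.46 and lymph node at 45.3 ± 7.69 (both n = 4) overlapped between them.

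The non-canonical subunits were ordered differently from these. Nfkb2, the precursor that the non-canonical branch processes, was the 1 gene of the 10 whose highest vehicle level was in whole tumor, 163 ± 9.82 CPM (n = 4) on the common scale. Sorted cells were next at 108 ± 13.9 (n = 4), and lymph node at 86.9 ± 6.94 (n = 4) and blood at 86.0 ± 8.11 (n = 5) overlapped. Sorted cells overlapped blood as well, with a lowest sorted library of 94.1 and a highest blood library of 98.6. Relb, its partner, was highest in lymph node at 50.9 ± 3.48 (n = 4), overlapping sorted cells at 44.7 ± 7.04 (n = 4), and tumor at 31.1 ± 1.83 (n = 4) overlapped blood at 28.6 ± 2.06 (n = 5).

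Among the inhibitors, Nfkbia overlapped in lymph node (91.9 ± 9.25 CPM, n = 4), blood (85.5 ± 7.64, n = 5) and sorted cells (80.4 ± 9.42, n = 4), and tumor was below all 3 at 54.0 ± 2.34 (n = 4). Tnfaip3, which encodes a ubiquitin-editing enzyme that shuts off signalling to IKK, overlapped in sorted cells (92.3 ± 25.0, n = 4) and blood (82.0 ± 7.55, n = 5), above lymph node (36.3 ± 5.34, n = 4) and tumor (19.99 ± 2.22, n = 4). Nfkbie, which encodes a second IkappaB, separated all 4 materials, from 64.5 ± 7.81 (n = 4) in sorted cells through 43.3 ± 3.54 (n = 4) in lymph node and 34.7 ± 2.92 (n = 4) in tumor to 25.8 ± 1.66 (n = 5) in blood. The nuclear IkappaB proteins differ from these in that they bind DNA-bound dimers. Of these, Nfkbiz was highest in sorted cells (47.7 ± 16.9, n = 4), which overlapped blood (21.97 ± 8.36, n = 5), and lower in tumor (10.8 ± 1.31, n = 4) and lymph node (9.16 ± 0.147, n = 4). Bcl3 was highest in sorted cells (54.2 ± 11.6, n = 4), with lymph node (30.7 ± 3.98, n = 4), blood (23.6 ± 3.36, n = 5) and tumor (19.7 ± 1.61, n = 4) each overlapping the next. Per kilobase of exon, Nfkbia was the most abundant of the 10 transcripts in sorted cells, lymph node and blood (49.96 ± 5.85, n = 4, 57.1 ± 5.75, n = 4, and 53.1 ± 4.75, n = 5, CPM per kilobase). In tumor Nfkb2 (35.6 ± 2.14, n = 4) and Nfkbia (33.6 ± 1.45, n = 4) lay together. These levels are a description with no test. In bulk RNA, fewer cells of a type and less RNA per cell cannot be told apart.

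In sorted cells ATOR-4066 raised the feedback inhibitors Nfkbia and Tnfaip3, with the largest log2 changes against vehicle of the 10 genes in the 4 materials, and no subunit passed the test. Nfkbia (ENSMUSG00000021025, chr12:55489410-55492647, minus strand, GRCm38) was at 167, 158, 141 and 129.5 CPM in vehicle cells, at 372, 229.9 and 296 after CD40 mAb and at 412, 476 and 584 after ATOR-4066. All 3 groups were apart, with CD40 mAb between vehicle and ATOR-4066. Against vehicle it rose by 1.72 ± 0.19 (log2 change ± SE, n = 3 and 4) after ATOR-4066, with an adjusted p of 0.00329 by edgeR's quasi-likelihood test with Benjamini-Hochberg adjustment over 16667 genes, which is the test used below unless another is named. After CD40 mAb it rose by 1.01 ± 0.19 (n = 3 and 4, edgeR adjusted p = 0.0417). The ATOR-4066 call held when any 1 of the 7 libraries was left out (1.56 to 1.82). The CD40 mAb call held only without CD40 mAb replicate 7 and was lost without any other of the 7 libraries, with adjusted p of 0.0265 to 0.148 and log2 changes of 0.82 to 1.16.

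Tnfaip3 (ENSMUSG00000019850, chr10:19000910-19015657, minus strand) was at 152, 230.1, 122 and 179 CPM in vehicle cells and at 561, 1194 and 803 after ATOR-4066, 171 ± 45.8 (n = 4) against 853 ± 319.6 (SD, n = 3). After CD40 mAb replicate 6 had 542 CPM and replicates 7 and 10 had 194 and 226. Every ATOR-4066 library was above every other sorted library, and 2 of the 3 CD40 mAb libraries were within the vehicle range. The rise after ATOR-4066 was 2.32 ± 0.39 on the log2 scale (n = 3 and 4, edgeR adjusted p = 0.0108) and it was called with any 1 library left out (1.99 to 2.53). After CD40 mAb the change was 0.91 ± 0.38 (edgeR adjusted p = 0.236). These 2 genes were the members called among 10 after ATOR-4066, where 11.9 percent of all genes tested were called, and Nfkbia was the 1 member called after CD40 mAb, where 1.09 percent were. The comparisons of each antibody with vehicle share the same vehicle libraries.

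**Figure D1:**
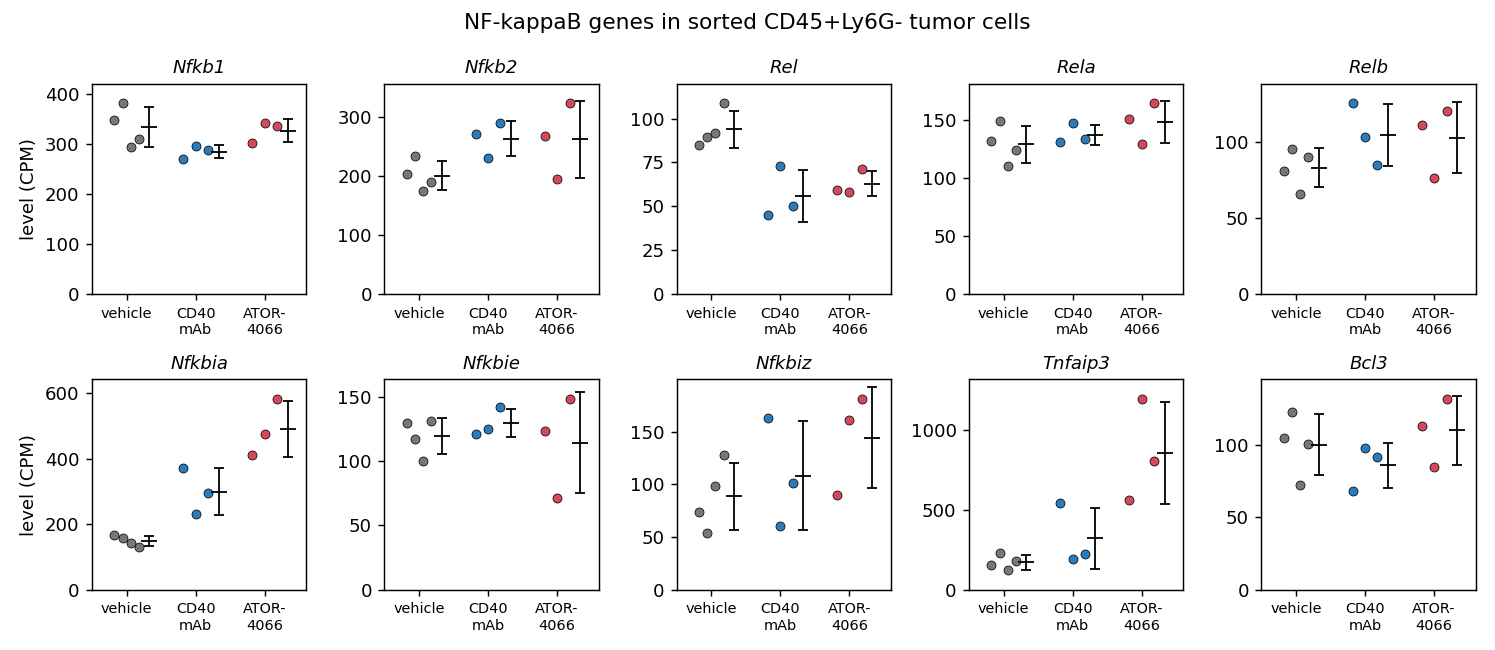
CPM of each of the 10 genes in sorted CD45+Ly6G- tumor cells, 1 panel per gene, with a point for each library and a bar for the group mean ± SD, after vehicle (n = 4), CD40 mAb (n = 3) and ATOR-4066 (n = 3). The 3 ATOR-4066 libraries lie above all others for Nfkbia (412 to 584) and Tnfaip3 (561 to 1194), and the treated libraries lie below vehicle for Rel.

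Set directly against CD40 mAb, ATOR-4066 gave Nfkbia a log2 change of 0.71 ± 0.20 and Tnfaip3 one of 1.41 ± 0.42 (both n = 3 and 3). The groups did not overlap for either gene, and neither passed the test (edgeR adjusted p = 0.0543 and 0.0656), so 0 members were called in a comparison where 8.23 percent of all genes were; DESeq2 called both. Without CD40 mAb replicate 6, the library with the high Tnfaip3 level, both passed (edgeR adjusted p = 0.038 for Nfkbia, and 0.0207 with a log2 change of 2.00 for Tnfaip3). Nfkb1 also separated the groups, at 270.3, 295 and 289 CPM after CD40 mAb and 302, 342 and 336 after ATOR-4066, a log2 change of 0.20 ± 0.14 (edgeR adjusted p = 0.392). The other members had log2 changes of −0.01 (Nfkb2), 0.17 (Rel), 0.11 (Rela), −0.02 (Relb), −0.18 (Nfkbie), 0.41 (Nfkbiz) and 0.36 (Bcl3), with a smallest adjusted p of 0.335. Without scaling factors the median of all genes in this comparison moved by 0.11.

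The c-Rel gene was lower in every treated sorted library without passing the test. Rel (ENSMUSG00000020275, chr11:23736847-23770970, minus strand) was at 84.9, 89.7, 91.5 and 109 CPM in vehicle cells, at 44.8, 72.9 and 50.2 after CD40 mAb and at 59.1, 58.4 and 71.2 after ATOR-4066. Every treated library was below every vehicle library. The log2 changes were −0.74 ± 0.17 after CD40 mAb (n = 3 and 4, edgeR adjusted p = 0.0666) and −0.58 ± 0.17 after ATOR-4066 (n = 3 and 4, 0.0563). Neither passed the threshold, and DESeq2, a fit of only the groups compared and a fit with no filter on low counts called both (DESeq2 adjusted p = 0.0103 and 0.0297).

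None of the other subunits was called. In the non-canonical pair, Nfkb2 (ENSMUSG00000025225, chr19:46304320-46312385, plus strand) was at 203, 234, 175 and 190.4 CPM in vehicle cells, 271, 231 and 289.7 after CD40 mAb and 269, 194 and 325 after ATOR-4066. Relb (ENSMUSG00000002983, chr7:19606217-19629438, minus strand) was at 80.5, 94.9, 65.7 and 89.8 in vehicle cells, 125, 103 and 84.5 after CD40 mAb and 111, 76.1 and 120.4 after ATOR-4066. In each gene at least 1 treated library lay inside the vehicle range. Log2 changes were 0.40 ± 0.18 and 0.39 ± 0.18 for Nfkb2 (edgeR adjusted p = 0.268 and 0.185) and 0.33 ± 0.20 and 0.31 ± 0.20 for Relb (0.393 and 0.331). Rela (ENSMUSG00000024927, chr19:5637483-5648130, plus strand) had 129 ± 16.1, 137 ± 8.72 and 148 ± 18.2 CPM after vehicle (n = 4), CD40 mAb (n = 3) and ATOR-4066 (n = 3). Nfkb1 (ENSMUSG00000028163, chr3:135584655-135691547, minus strand) had 334 ± 39.3, 285 ± 12.9 and 327 ± 22.04 CPM in the same groups. For both genes each antibody group overlapped vehicle, and the smallest adjusted p was 0.358.

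No group stood apart for the remaining inhibitors. Nfkbiz (ENSMUSG00000035356, chr16:55811375-55838899, minus strand) ran from 54.0 to 127 CPM in vehicle cells, from 60.2 to 163 after CD40 mAb and from 90.3 to 181 after ATOR-4066, with log2 changes of 0.29 ± 0.38 and 0.70 ± 0.38 (edgeR adjusted p = 0.742 and 0.252). Nfkbie (ENSMUSG00000023947, chr17:45555703-45563169, plus strand) had 119 ± 14.3 CPM in vehicle cells (n = 4), 129 ± 10.9 after CD40 mAb (n = 3) and 114 ± 39.4 after ATOR-4066 (n = 3), where replicate 9 had 71.1. Bcl3 (ENSMUSG00000053175, chr7:19808462-19822770, minus strand) had 100.3 ± 21.0, 85.9 ± 15.4 and 110.1 ± 23.7 (n = 4, 3 and 3). The groups overlapped in all 3 genes.

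The cell make-up of the sorted libraries differed with treatment as well. The summed level of 10 T cell markers was 739 to 1145 CPM after vehicle, 347 to 747 after CD40 mAb and 2057 to 5114 after ATOR-4066, and 10 of 10 were called higher after ATOR-4066 against vehicle. The sum of 9 macrophage markers was 7514 to 9729, 5373 to 18411 and 706 to 3978 in the same order, with 3 of 9 called lower after ATOR-4066. The part of these shifts in the levels of Nfkbia, Tnfaip3 and Rel was not tested.

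The rest of the pathway was read from 4 lists. Of 29 NF-kappaB response genes tested in sorted cells, 9 rose and 1 fell after ATOR-4066, where 11.9 percent of all genes were called, with a median log2 change of 0.77 against −0.02 over all genes. The stress gene Gadd45b rose from 28.6 to 106 CPM (1.89 ± 0.16, edgeR adjusted p = 0.00244) and the chemokine Cxcl1 from 0.403 to 6.96 (4.08 ± 0.58, 0.00739). The prostaglandin synthase Ptgs2 rose from 17.3 to 131 (2.92 ± 0.46, 0.0102) and the costimulatory ligand Cd80 from 25.5 to 52.1 (1.03 ± 0.17, 0.0102). The gene that fell, named after its value was seen, was the protease Plau (−2.13 ± 0.46, 0.0199). After CD40 mAb 3 of the 29 rose and 0 fell, where 1.09 percent of all genes were called, with a median of 0.37. They were Cxcl1 to 15.3 CPM (5.21 ± 0.60, 0.00992), the chemokine Cxcl2 from 11.1 to 147 (3.73 ± 0.67, 0.0416) and Gadd45b to 50.7 (0.82 ± 0.16, 0.0453). ATOR-4066 exceeded CD40 mAb in 4 of them, Gadd45b (1.07 ± 0.17, 0.012), the adaptor Traf1 (0.75 ± 0.17, 0.031), the cytokine Tnf (1.16 ± 0.28, 0.0343) and the cytokine Il1a (2.01 ± 0.50, 0.0378). It was below CD40 mAb in 2, Plau and the cytokine subunit Ebi3 (−0.79 ± 0.21, 0.046).

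Of 16 other negative regulators tested in sorted cells, 3 rose after ATOR-4066 against vehicle and 0 fell, in a comparison where 11.9 percent of all genes were called. The deubiquitinase Cyld rose from 101 to 141 CPM (0.48 ± 0.11, edgeR adjusted p = 0.0226), and the Tnfaip3 partners Tnip1 from 116 to 169 (0.54 ± 0.13, 0.0261) and Tax1bp1 from 179 to 265 (0.57 ± 0.15, 0.0383). Cyld and Tnip1 also exceeded their CD40 mAb levels (0.54 ± 0.12, 0.0266, and 0.54 ± 0.14, 0.0432). After CD40 mAb none of the 16 was called, the smallest p being those of the ubiquitin ligase Birc2 (−0.36 ± 0.17, 0.297) and Commd1 (0.32 ± 0.17, 0.323). Among 19 kinases and upstream adaptors 2 fell after ATOR-4066, a share no higher than the 11.9 percent over all genes. They were the IKK subunit Ikbkb from 231 to 164 CPM (−0.49 ± 0.14, 0.0442) and the adaptor Card9 from 89.7 to 25.7 (−1.80 ± 0.50, 0.0446). Irak4 was below its CD40 mAb level (−0.64 ± 0.15, 0.0361). After CD40 mAb Ikbkb (−0.46 ± 0.14, 0.107) and the IKK subunit Chuk (−0.40 ± 0.14, 0.151) had the smallest p of that list. Of 5 response genes of the non-canonical branch, the cytokine gene Tnfsf13b fell after ATOR-4066 from 18.3 to 4.08 CPM (−2.17 ± 0.38, 0.0108), and after CD40 mAb it was at 6.76 (−1.44 ± 0.37, 0.0763). The complement receptor gene Cr2 and Fcer2a, both also B cell markers, had mean levels of 0 and 0.238 CPM after CD40 mAb and of 10.8 and 12.8 after ATOR-4066, with edgeR adjusted p of 0.0723 and 0.0763 between the antibodies. Cr2 was at 0 in 5 of 10 sorted libraries. The B cell markers summed to 112, 205 and 402 CPM in the CD40 mAb libraries and to 155, 172 and 833 in the ATOR-4066 libraries.

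In whole tumor Nfkbia was again higher after ATOR-4066. Nfkbia was at 116, 113, 106 and 115 CPM in vehicle tumors, at 131, 114, 125, 121 and 196 after CD40 mAb and at 206, 256, 229.8 and 172 after ATOR-4066. All ATOR-4066 tumors were above all vehicle tumors, and 4 of 5 CD40 mAb tumors lay just above or within the vehicle range. It rose by 0.94 ± 0.18 after ATOR-4066 (n = 4 and 4, edgeR adjusted p = 0.0407), the 1 member called of 10, where 1.32 percent of 18454 genes were called. The call held only without ATOR-4066 replicate 5 and was lost without any other of the 8 libraries (0.0352 to 0.164), although the log2 change stayed between 0.88 and 1.03. The call was also lost when the tumor library whose markers go against its label was kept (0.0555).

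Another 4 genes were higher in every ATOR-4066 tumor than in any vehicle tumor, and 1 was lower, without passing the test. The share of all genes whose groups separated in this way was not counted. By edgeR 4552 of the 18454 genes had an unadjusted p under 0.05 in this comparison. Tnfaip3 was at 47.4, 43.6, 37.1 and 38.4 CPM in vehicle tumors and at 58.1, 86.8, 106 and 52.6 after ATOR-4066 (0.87 ± 0.28, edgeR adjusted p = 0.0921). Rela was at 97.0, 97.1, 90.8 and 98.3 against 131, 149.6, 126 and 123 (0.47 ± 0.12, 0.061). Relb was at 70.0, 59.4, 65.2 and 64.1 against 85.8, 74.9, 103 and 88.6 (0.44 ± 0.12, 0.0674). So the lowest ATOR-4066 tumor was above the highest vehicle tumor in each of the 3. Bcl3 was at 41.8, 36.0, 42.8 and 43.5 against 43.9, 59.2, 77.2 and 52.6 (0.51 ± 0.21, 0.166), and its groups came within 1 CPM of each other. Nfkb1 was lower after ATOR-4066, at 103, 131, 150.4 and 104 against 175, 157, 163 and 161 CPM (−0.43 ± 0.20, 0.214). In a DESeq2 fit, and in one of only these 2 groups, Rela, Relb and Tnfaip3 were called with Nfkbia, 4 members in each. Voom with sample weights called 7 members, in a fit that called 4946 of all genes where the main fit called 243.

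The other 4 genes overlapped in tumor. Nfkb2 was at 333, 318, 346 and 363 CPM after vehicle and 221, 238, 334 and 265 after ATOR-4066 (−0.36 ± 0.23, edgeR adjusted p = 0.348), and only ATOR-4066 replicate 4 reached the vehicle range. Nfkbie was at 72.2 ± 6.62 against 91.4 ± 19.2 CPM (n = 4 and 4; 0.34 ± 0.28, 0.47) and Nfkbiz at 22.5 ± 2.72 against 32.0 ± 9.28 (0.51 ± 0.24, 0.206). Rel had 27.3 ± 4.18 and 28.4 ± 11.5 CPM (0.06 ± 0.32, 0.93), with ATOR-4066 tumors on both sides of the vehicle range at 15.1, 22.5, 36.7 and 39.2.

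**Figure D2:**
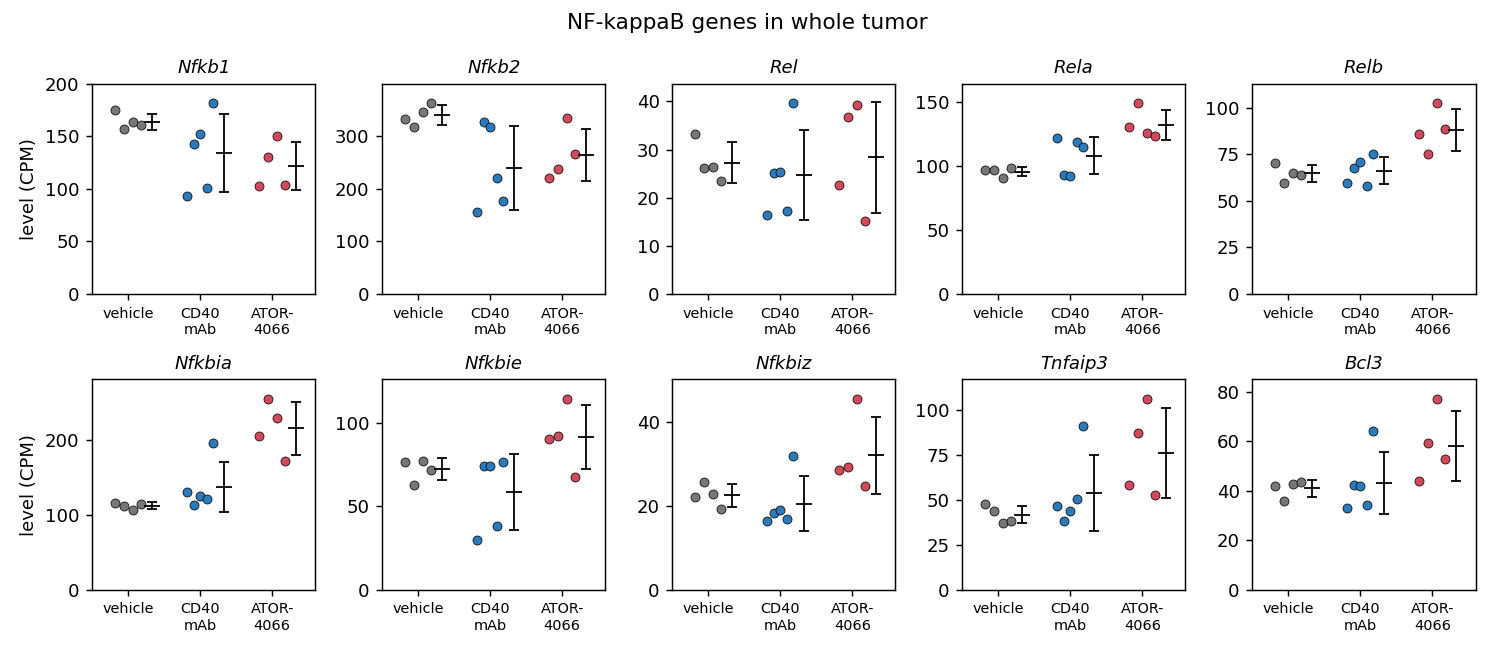
CPM of each of the 10 genes in whole tumor, 1 panel per gene, with a point for each library and a bar for the group mean ± SD, after vehicle (n = 4), CD40 mAb (n = 5) and ATOR-4066 (n = 4). ATOR-4066 tumors lie above all vehicle tumors for Nfkbia, Tnfaip3, Rela, Relb and Bcl3, and 1 CD40 mAb tumor stands above the other 4 for Nfkbia (196), Tnfaip3 (90.7) and Nfkbiz (32.0).

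No member was called in tumor after CD40 mAb against vehicle, where 0 percent of all genes were; edgeR gave 2205 genes, 1 of them a member, an unadjusted p under 0.05, and DESeq2 called 33 genes and 0 members. The member with that p was Nfkb2, at 155, 327, 318, 219.7 and 176 CPM (−0.51 ± 0.22, edgeR adjusted p = 0.412), so that replicates 1, 4 and 5 were well below the vehicle tumors and replicates 2 and 3 inside or next to their range. Replicates 1 and 4 were also the lowest for Nfkb1 (93.3 and 100.5, against 143 to 182 in the others) and Nfkbie (29.9 and 38.1, against 74.2 to 76.9). The other members had log2 changes of −0.29 (Nfkb1), −0.14 (Rel), 0.18 (Rela), 0.03 (Relb), 0.29 (Nfkbia), −0.30 (Nfkbie), −0.13 (Nfkbiz), 0.37 (Tnfaip3) and 0.07 (Bcl3), with a smallest adjusted p of 0.436. Between the antibodies 0 members were called as well, where 0.0325 percent of genes were. By edgeR 5 members, and 1879 of the 18454 genes, had an unadjusted p under 0.05, and DESeq2 called 2 members. Those 5 were Relb (0.41 ± 0.11, edgeR adjusted p = 0.264), Nfkbia (0.65 ± 0.16, 0.212), Rela (0.29 ± 0.11, 0.419), Nfkbiz (0.64 ± 0.22, 0.359) and Nfkbie (0.64 ± 0.26, 0.438), all higher after ATOR-4066. The rest had −0.14 (Nfkb1), 0.15 (Nfkb2), 0.20 (Rel), 0.49 (Tnfaip3) and 0.43 (Bcl3), and none of these was called. Only Rela and Relb did not overlap. Without CD40 mAb replicate 5, Nfkbia (0.82, 0.013) and Nfkbiz (0.035) passed.

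CD40 mAb replicate 5 carried more immune markers than its group. Its T cell markers summed to 1339 CPM against 38.1 to 154 in the other 4, and its macrophage markers to 17402 against 3029 to 6466. Across tumors, 7 neutrophil markers tested summed to 29.0 to 42.1 CPM after vehicle and 52.7 to 229 after ATOR-4066, with 3 of 7 called higher, while macrophage markers overlapped at 4915 to 7129 and 3595 to 6267. The sum of 7 fibroblast markers did not overlap, at 10812.5 to 15233 CPM after vehicle and 4702 to 9832 after ATOR-4066, and 0 of the 7 were called. The part of these cells in the tumor values was not tested.

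Of 31 response genes tested in tumor, 7 rose after ATOR-4066 and 0 fell, where 1.32 percent of all genes were called, with a median of 1.36 against 0.02 over all genes and 28 of 31 above 0. The chemokine genes Cxcl3 went from 0.172 to 19.998 CPM (6.84 ± 1.11, edgeR adjusted p = 0.0392), Cxcl2 from 0.763 to 22.6 (4.88 ± 0.87, 0.0407) and Cxcl5 from 0.478 to 4.64 (3.27 ± 0.65, 0.042). The cytokine Il6 went from 0.358 to 3.32 (3.21 ± 0.62, 0.042). Of 16 other inhibitors 2 rose, the IkappaB gene Nfkbib from 42.3 to 68.7 CPM (0.70 ± 0.12, 0.0394) and Tnip2 from 16.6 to 26.2 (0.66 ± 0.14, 0.0433). None of the kinases and adaptors was called, the kinase Ripk1 (0.37 ± 0.13, 0.12) and Irak3 (1.20 ± 0.46, 0.135) having the smallest p, and none of the non-canonical response genes (Cxcl12, 1.44 ± 0.49, 0.104; Tnfsf13b, −1.33 ± 0.49, 0.123). After CD40 mAb none of the 4 lists had a call. The 2 genes of smallest p in each were Cxcl3 (3.08 ± 0.96, 0.412) and Cxcl5 (1.90 ± 0.60, 0.412), and Ikbkg (1.17 ± 0.46, 0.412) and Irak3 (0.66 ± 0.43, 0.48). For inhibitors they were Tnip2 (0.31 ± 0.13, 0.412) and Rnf11 (0.29 ± 0.17, 0.438), and for the non-canonical list Cxcl13 (2.31 ± 0.61, 0.412) and Glycam1 (−6.22 ± 1.82, 0.412). Between the antibodies none was called either. The response genes Il6 (3.15 ± 0.57, 0.106) and Junb (0.71 ± 0.15, 0.148) and the inhibitors Nfkbib (0.60 ± 0.11, 0.106) and Tnip2 (0.35 ± 0.13, 0.405) had the smallest p of their lists. In the other lists these were Malt1 (0.49 ± 0.25, 0.531) and Ripk1 (0.23 ± 0.13, 0.564), and Glycam1 (4.31 ± 1.73, 0.426) and Enpp2 (−0.81 ± 0.39, 0.498).

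In lymph node, where B cells and dendritic cells carry CD40, none of the 10 genes was called under either antibody. Nfkbiz came nearest, at 19.1, 18.8, 19.6 and 19.6 CPM after vehicle, 18.4, 22.8, 19.9 and 21.0 after CD40 mAb and 20.8, 24.6, 24.5, 21.9 and 26.6 after ATOR-4066. Every ATOR-4066 lymph node was above every vehicle lymph node, a log2 change of 0.30 ± 0.08 (n = 5 and 4, edgeR adjusted p = 0.222), and 3 of 5 were above every CD40 mAb lymph node. Bcl3 was at 51.3, 69.8, 70.2 and 67.2 CPM after vehicle and 71.8, 114, 90.4, 77.6 and 67.3 after ATOR-4066, overlapping by 1 library (0.38 ± 0.16, 0.288). Tnfaip3 was at 68.8, 64.3, 82.5 and 89.6 after vehicle, 67.7, 91.3, 96.5 and 102 after CD40 mAb and 87.6, 90.7, 93.6, 86.9 and 91.6 after ATOR-4066 (0.23 ± 0.12, 0.278, and 0.24 ± 0.12, 0.341). Its ATOR-4066 levels were tightly grouped, at 90.1 ± 2.78 CPM (n = 5), and 3 of the 5 lay above every vehicle lymph node.

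Nfkbia, which had risen in sorted cells and tumor, was at 193 ± 21.1 CPM in vehicle lymph nodes (n = 4), 215 ± 17.7 after CD40 mAb (n = 4) and 217 ± 13.8 after ATOR-4066 (n = 5). Its log2 changes were 0.15 ± 0.09 and 0.17 ± 0.08 (edgeR adjusted p = 0.308 and 0.352). All 10 log2 changes were above 0 after ATOR-4066, from 0.04 to 0.38, and 8 of 10 after CD40 mAb, from −0.03 to 0.29. The median of all genes was −0.006 and −0.02 in the same order, and the share of all genes above 0 was not counted. The members varied together in lymph node, as described below, so their signs are not independent. After CD40 mAb Nfkbie (91.1 ± 8.53 against 111 ± 15.2 CPM, n = 4 and 4; 0.29 ± 0.13, 0.211) and Nfkb2 (183 ± 16.6 against 217 ± 37.3; 0.25 ± 0.12, 0.239) had the largest changes. Over the 13 lymph nodes Nfkb1 ran from 181 to 261 CPM, Rela from 89.0 to 114, Relb from 93.7 to 126 and Rel from 70.3 to 126, and all 3 groups overlapped for each of these subunits. The changes after ATOR-4066 not given above were 0.14 (Nfkb1), 0.12 (Nfkb2), 0.04 (Rel), 0.08 (Rela), 0.11 (Relb) and 0.12 (Nfkbie). After CD40 mAb they were 0.09 (Nfkb1), −0.03 (Rel), −0.03 (Rela), 0.01 (Relb), 0.09 (Nfkbiz) and 0.18 (Bcl3). Between the antibodies Nfkbiz had 0.21 ± 0.08 (edgeR adjusted p = 0.454), and the others ran from −0.17 (Nfkbie) and −0.13 (Nfkb2) through 0.01 (Tnfaip3), 0.02 (Nfkbia), 0.06 (Nfkb1), 0.07 (Rel), 0.10 (Relb) and 0.11 (Rela) to 0.20 (Bcl3).

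The counts of 0 members called stood against 0 percent of 18671 genes called after ATOR-4066, 0.0643 percent after CD40 mAb and 0.0161 percent between the antibodies. By edgeR 2, 1 and 1 members in the same order had an unadjusted p under 0.05, beside 2954, 4409 and 1740 of the 18671 genes. DESeq2 called 1, 0 and 0 members. None of the 4 pathway lists had a called gene in lymph node. After CD40 mAb the smallest adjusted p in them belonged to the ubiquitin ligase gene Rnf11 (−0.66 ± 0.14, 0.054) and Tnip3 (−0.57 ± 0.30, 0.253) among inhibitors, and to the adhesion molecule Vcam1 (0.39 ± 0.10, 0.0666) and Traf1 (0.42 ± 0.13, 0.0956) among response genes. They were Ikbkb (−0.20 ± 0.07, 0.132) and Myd88 (0.38 ± 0.14, 0.136) among kinases and adaptors, and Glycam1 (−1.55 ± 0.49, 0.109) and Ccl19 (0.54 ± 0.22, 0.168) among non-canonical response genes. After ATOR-4066 the first 2 of each list were Marcks (−0.23 ± 0.07, 0.222) and Cd80 (0.51 ± 0.16, 0.224), and Rnf11 (−0.59 ± 0.13, 0.222) and Birc2 (0.16 ± 0.06, 0.249). In the other lists they were Cxcl13 (−0.51 ± 0.18, 0.246) and Madcam1 (−0.69 ± 0.31, 0.305), and Ripk1 (0.20 ± 0.08, 0.282) and Myd88 (0.30 ± 0.13, 0.296). Between the antibodies they were Cxcl13 (−0.79 ± 0.18, 0.237) and Glycam1 (0.92 ± 0.46, 0.573), and Tnip3 (1.02 ± 0.28, 0.304) and Commd1 (−0.22 ± 0.08, 0.38). In the remaining lists they were Vcam1 (−0.30 ± 0.09, 0.331) and Cxcl3 (−2.77 ± 1.19, 0.507), and Ikbkb (0.20 ± 0.07, 0.375) and Tab1 (0.17 ± 0.07, 0.46). B cell markers summed to 3822 to 9154 CPM and T cell markers to 1259 to 2066 over the 13 lymph nodes.

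In blood, relative to the median gene, Tnfaip3 was lower after ATOR-4066 and Nfkb1 and Rel were lower after CD40 mAb. Levels here are relative to the other genes of a library after scaling, and the scaling factors themselves differed with treatment, from 1.65 to 2.35 after vehicle, 0.623 to 1.19 after ATOR-4066 and 0.314 to 0.981 after CD40 mAb. Without them the median of all genes moved by −1.07 on the log2 scale after ATOR-4066, by −1.78 after CD40 mAb and by 0.71 between the antibodies, so every blood direction below is one relative to the median gene. Of the genes called, 94.3, 64.2 and 17.6 percent were higher in these 3 comparisons with scaling and 0.12, 2.90 and 85.9 percent without. On unscaled totals 9 members were called lower after ATOR-4066, 10 lower after CD40 mAb and 3 higher between the antibodies. In the same order 9172, 10972 and 2707 of all genes were called on those totals, where the scaled fit tested 12184.

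Tnfaip3 fell in blood after ATOR-4066. It was at 13.6, 11.2, 14.2, 11.97 and 13.3 CPM after vehicle, 10.01, 10.02, 10.2, 14.0 and 11.7 after CD40 mAb and 7.42, 6.60, 8.14 and 7.89 after ATOR-4066. Every ATOR-4066 library was below every other blood library, and CD40 mAb overlapped vehicle. Relative to the median gene it fell by 0.77 ± 0.12 against vehicle (log2, n = 4 and 5, edgeR adjusted p = 0.0153) and by 0.57 ± 0.13 against CD40 mAb (n = 4 and 5, 0.0077), where the sign turned on unscaled totals (0.20, 0.561). The call against vehicle was lost without vehicle replicate 1, 3, 4 or 5 or ATOR-4066 replicate 3 (0.0241 to 0.0862), and the one against CD40 mAb held without any 1 library. It was the 1 member called against vehicle, where 0.435 percent of 12184 genes were.

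The subunits Nfkb1 and Rel fell in blood after CD40 mAb. Nfkb1 was at 23.2, 24.7, 20.7, 24.2 and 23.3 CPM after vehicle, 19.1, 16.9, 16.7, 14.4 and 16.4 after CD40 mAb and 18.8, 16.2, 21.5 and 19.6 after ATOR-4066. All CD40 mAb libraries were below all vehicle libraries, a log2 change of −0.47 ± 0.12 (n = 5 and 5, edgeR adjusted p = 0.00479) that was called with any 1 of the 10 libraries left out. Rel was at 12.5, 12.5, 15.2, 16.1 and 19.0 CPM after vehicle, 13.5, 9.33, 11.7, 9.43 and 10.5 after CD40 mAb and 11.5, 7.93, 12.8 and 11.7 after ATOR-4066. Of the CD40 mAb libraries 4 of 5 were below all vehicle libraries (−0.46 ± 0.16, 0.031), and the call was kept in 4 of the 10 fits with 1 library left out (0.00775 to 0.0934). These were the 2 members called after CD40 mAb, against 34.6 percent of all genes.

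Relb and Bcl3 had positive log2 changes in blood after CD40 mAb on the scaled values and negative ones on unscaled totals. Relb was at 4.42, 4.36, 4.08, 4.73 and 4.87 CPM after vehicle, 4.44, 6.52, 4.45, 7.45 and 6.003 after CD40 mAb and 3.86, 3.58, 4.59 and 3.63 after ATOR-4066. The CD40 mAb libraries split, with replicates 2, 4 and 5 above all vehicle libraries and replicates 1 and 3 among them (0.34 ± 0.14, edgeR adjusted p = 0.066; −1.53 unscaled). Between the antibodies Relb was lower after ATOR-4066 by the test (−0.54 ± 0.15, 0.0254; 0.25 unscaled), a call kept in 3 of 9 fits with 1 library left out (0.00372 to 0.0962). With Tnfaip3 it made 2 members called in that comparison, where 13.1 percent of genes were. Bcl3 was at 3.03, 3.39, 3.74, 4.44 and 3.91 after vehicle, 3.77, 4.56, 4.50, 4.39 and 5.29 after CD40 mAb and 4.27, 5.09, 5.74 and 4.67 after ATOR-4066 (0.28 ± 0.13, 0.106, with −1.54 unscaled, and 0.42 ± 0.13, 0.164), overlapping vehicle in both.

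The other 5 genes did not pass a test in blood. Nfkbia (0.06 ± 0.13 after CD40 mAb, −1.76 unscaled) was at 13.4 ± 1.20, 14.0 ± 1.97 and 12.1 ± 2.35 CPM after vehicle (n = 5), CD40 mAb (n = 5) and ATOR-4066 (n = 4). Nfkb2 was at 13.5 ± 1.30, 11.9 ± 1.74 and 12.5 ± 1.60. Rela had 9.13 ± 0.827, 8.22 ± 1.18 and 8.73 ± 1.04 CPM. Nfkbie had 4.05 ± 0.271, 3.41 ± 0.491 and 3.49 ± 0.455, and Nfkbiz 3.44 ± 1.29, 3.31 ± 0.784 and 3.17 ± 0.447. All overlapped between groups. On the scaled values the changes after CD40 mAb not given above were −0.17 (Nfkb2), −0.16 (Rela), −0.25 (Nfkbie), −0.09 (Nfkbiz) and −0.21 (Tnfaip3), with a smallest adjusted p of 0.118. After ATOR-4066 they were −0.29 (Nfkb1), −0.11 (Nfkb2), −0.45 (Rel), −0.06 (Rela), −0.20 (Relb), −0.14 (Nfkbia), −0.22 (Nfkbie) and −0.13 (Nfkbiz), with a smallest of 0.216. Between the antibodies they were 0.19 (Nfkb1), 0.06 (Nfkb2), 0.01 (Rel), 0.09 (Rela), −0.20 (Nfkbia), 0.03 (Nfkbie), −0.04 (Nfkbiz) and 0.14 (Bcl3), with a smallest of 0.351.

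**Figure D3:**
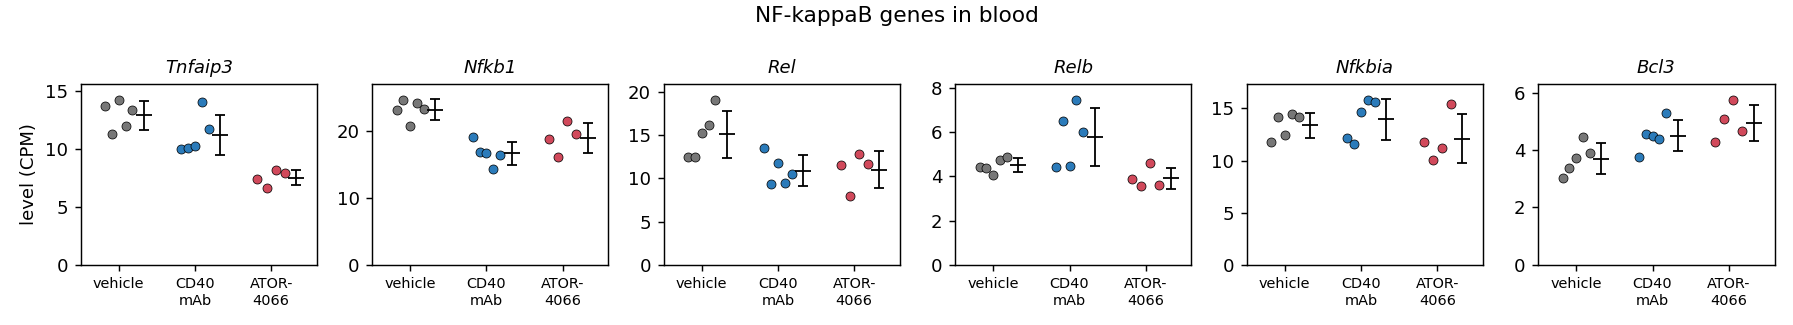
CPM, scaled within blood, of 6 of the 10 genes in blood, 1 panel per gene, with a point for each library and a bar for the group mean ± SD, after vehicle (n = 5), CD40 mAb (n = 5) and ATOR-4066 (n = 4). Tnfaip3 is lowest in all 4 ATOR-4066 libraries (6.60 to 8.14) and Nfkb1 lies lower in every CD40 mAb library (14.4 to 19.1) than in any vehicle library, both relative to the median gene.

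Cell markers in blood differed with treatment as well. After ATOR-4066 the sum of 7 erythroid markers was 696509 to 1432980.0 CPM against 304618 to 471340.0 after vehicle, without overlap, and 0 of the 7 were called. After CD40 mAb all 10 neutrophil markers were called higher, and their sum was 101 to 203 CPM after vehicle and 203 to 1018 after CD40 mAb. Of 8 B cell markers 7 were called lower, their sum being 476 to 585 and 183 to 460.3, and 7 of 7 erythroid markers were called higher. The part of these shifts in the changes of Tnfaip3, Nfkb1 and Rel was not tested. Of 21 response genes tested 8 rose after CD40 mAb and 0 fell on the scaled values, a share near the 34.6 percent called over all genes. The survival gene Bcl2l1 rose from 32.9 to 140.1 CPM (2.09 ± 0.31, edgeR adjusted p = 0.000132) and the antioxidant enzyme gene Sod2 from 7.20 to 16.6 (1.20 ± 0.20, 0.0003). Cd80 rose from 0.475 to 1.23 (1.34 ± 0.26, 0.00106) and Marcksl1 from 3.43 to 9.26 (1.40 ± 0.34, 0.00633). Of these only the change of Bcl2l1 was larger than the shift of the median gene.

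Of 15 other inhibitors 4 rose and 1 fell in blood after CD40 mAb, again a share near the 34.6 percent over all genes. Rnf11 rose from 77.7 to 316 CPM (2.02 ± 0.24, edgeR adjusted p = 0.000101) and Tax1bp1 from 69.3 to 661 (3.25 ± 0.46, 0.000113). Tnip1 (0.55 ± 0.13, 0.0044) and Birc2 (0.44 ± 0.13, 0.0163) rose less. Of 19 kinases and adaptors 5 rose and 5 fell, to be read against the same 34.6 percent, led by Tab3 from 5.09 to 27.7 CPM (2.44 ± 0.36, 0.000198), Ikbkg (1.06 ± 0.17, 0.000224), Irak1 (0.58 ± 0.12, 0.00182) and Tab2 (0.85 ± 0.19, 0.00235). Of 3 non-canonical response genes 2 fell, Fcer2a from 33.6 to 12.5 (−1.42 ± 0.29, 0.00167) and Cr2 from 15.7 to 7.05 (−1.13 ± 0.26, 0.00361), both also B cell markers. After ATOR-4066 none of the 4 lists had a called gene in blood, the smallest p being those of the inhibitors Rnf11 (0.86 ± 0.24, 0.121) and Tnfaip8l2 (0.39 ± 0.13, 0.171). In the other lists they were Map3k7 (−0.33 ± 0.13, 0.247) and Tbk1 (−0.21 ± 0.12, 0.429), Cxcl2 (−1.87 ± 0.86, 0.328) and Ptgs2 (−1.85 ± 0.87, 0.339), and Tnfsf13b (0.66 ± 0.37, 0.425) and Cr2 (−0.36 ± 0.27, 0.559). Against CD40 mAb, ATOR-4066 blood was lower in 4 response genes, 4 kinases and adaptors and 3 other inhibitors, all of them among those just named, and higher in Fcer2a (1.01 ± 0.30, 0.0372). Over all genes 13.1 percent were called in that comparison, 1312 lower and 281 higher, relative to the median gene.

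**Figure D4:**
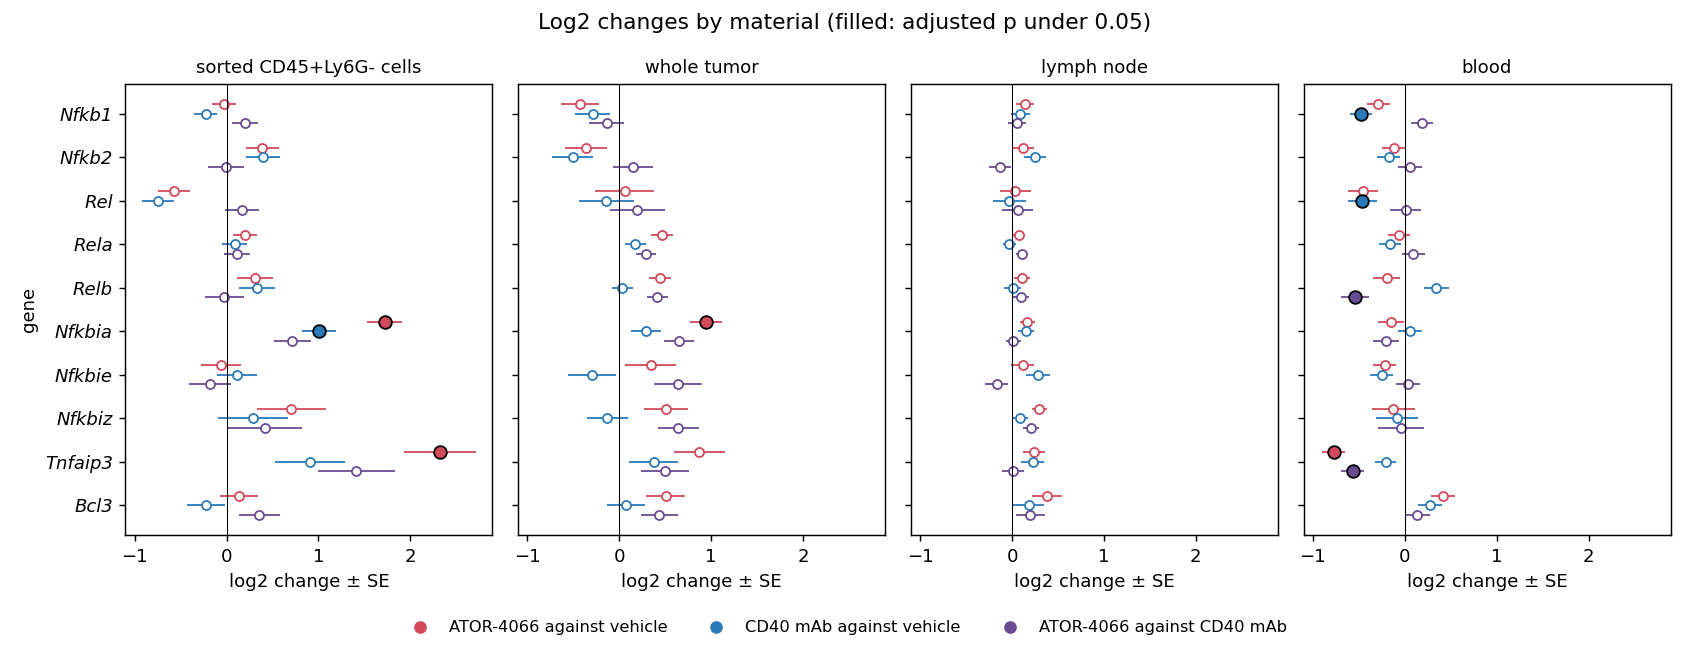
Log2 change ± SE of each of the 10 genes in sorted cells, tumor, lymph node and blood, 1 panel per material, with a point for each of the 3 comparisons by colour and filled points for an edgeR adjusted p under 0.05. Nfkbia and Tnfaip3 reach 1.72 and 2.32 in sorted cells after ATOR-4066, and all lymph node changes lie between −0.17 and 0.38.

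Whether an antibody's effect differed between materials was tested with a fit over all 50 libraries, as the difference of 2 log2 changes against vehicle. The fit was limma's voom with sample weights and a random block for libraries of the same treatment and replicate number. For ATOR-4066 the effect was larger in sorted cells than in tumor for Tnfaip3 by 1.49 ± 0.38 (limma adjusted p = 0.00856) and Nfkbia by 0.80 ± 0.24 (0.0286), 2 of 10 members, against 10.1 percent of 21410 genes. Sorted cells and tumor carried different replicate numbers. The other 8 members differed by 0.44 (Nfkb1), 0.76 (Nfkb2), −0.52 (Rel), −0.24 (Rela), −0.12 (Relb), −0.42 (Nfkbie), 0.25 (Nfkbiz) and −0.32 (Bcl3), with a smallest adjusted p of 0.102. Between tumor and lymph node the ATOR-4066 effect was larger in tumor for Nfkbia by 0.75 ± 0.19 (0.0119) and lower for Nfkb1, −0.60 ± 0.19 (0.0402), 2 of 10 against 8.47 percent. The others differed by −0.50 (Nfkb2), −0.07 (Rel), 0.38 (Rela), 0.32 (Relb), 0.20 (Nfkbie), 0.17 (Nfkbiz), 0.55 (Tnfaip3) and 0.10 (Bcl3), with a smallest adjusted p of 0.071. The calls for Nfkbia and Nfkb1 were lost when the libraries whose markers go against their labels were kept (0.165 for Nfkbia and 0.355 for Nfkb1).

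For CD40 mAb none of the 10 differed between sorted cells and tumor, where 0.402 percent of genes did. By limma 2 members had an unadjusted p under 0.05, beside 2544 of 21410 genes. They were Nfkb2 (1.02 ± 0.29, limma adjusted p = 0.0974) and Nfkbia (0.78 ± 0.24, 0.125), and an edgeR fit over all materials called both. The others had 0.16 (Nfkb1), −0.52 (Rel), −0.02 (Rela), 0.35 (Relb), 0.57 (Nfkbie), 0.46 (Nfkbiz), 0.53 (Tnfaip3) and −0.20 (Bcl3), with a smallest adjusted p of 0.538. Between tumor and lymph node Nfkb2 differed (−0.83 ± 0.23, limma adjusted p = 0.0235), 1 of 10 against 5.49 percent. This call was lost when the libraries whose markers go against their labels were kept (0.36). The others had −0.44 (Nfkb1), −0.19 (Rel), 0.18 (Rela), −0.00026 (Relb), 0.08 (Nfkbia), −0.70 (Nfkbie), −0.28 (Nfkbiz), 0.07 (Tnfaip3) and −0.17 (Bcl3), with a smallest adjusted p of 0.1. Between lymph node and blood the ATOR-4066 effect on Tnfaip3 differed by 1.07 ± 0.26 (0.0333), 1 of 10 against 0.883 percent, and the CD40 mAb effect on Nfkb1 by 0.65 ± 0.16 (0.00314), 1 of 10 against 22.9 percent. For the other members the differences with ATOR-4066 were 0.48 (Nfkb1), 0.29 (Nfkb2), 0.50 (Rel), 0.19 (Rela), 0.37 (Relb), 0.36 (Nfkbia), 0.40 (Nfkbie), 0.47 (Nfkbiz) and 0.02 (Bcl3), with a smallest adjusted p of 0.0863. For CD40 mAb they were 0.51 (Nfkb2), 0.50 (Rel), 0.26 (Rela), −0.16 (Relb), 0.24 (Nfkbia), 0.67 (Nfkbie), 0.30 (Nfkbiz), 0.58 (Tnfaip3) and 0.02 (Bcl3), with a smallest adjusted p of 0.0675. The median of all genes in these last comparisons was −0.11 and −0.28, and the first was lost without sample weights (0.463), as was the second (0.0535).

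The members did not vary as 1 block. Over the 50 libraries, with the mean of each material taken out of the log2 CPM values, Nfkbia and Tnfaip3 had a Pearson r of 0.87. Within a material it was 0.91 in sorted cells (n = 10), 0.90 in tumor (n = 13), 0.89 in lymph node (n = 13) and 0.52 in blood (n = 14). Nfkb1 and Rel had an r of 0.72, from 0.43 in sorted cells to 0.82 in blood, and Nfkb2 and Nfkbie one of 0.64, from 0.56 in tumor to 0.95 in lymph node. Nfkbiz followed Tnfaip3 at 0.62 and Nfkbia at 0.56. Nfkb1 and Nfkbia had an r of −0.01 over the 50 libraries, with 0.76 in lymph node, 0.19 in blood, −0.07 in sorted cells and −0.17 in tumor. In lymph node every pair of members had a positive r, from 0.24 (Nfkbie and Nfkbiz) to 0.95. These values describe libraries that share treatments, scaling and, in part, replicate numbers.

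**Figure D5:**
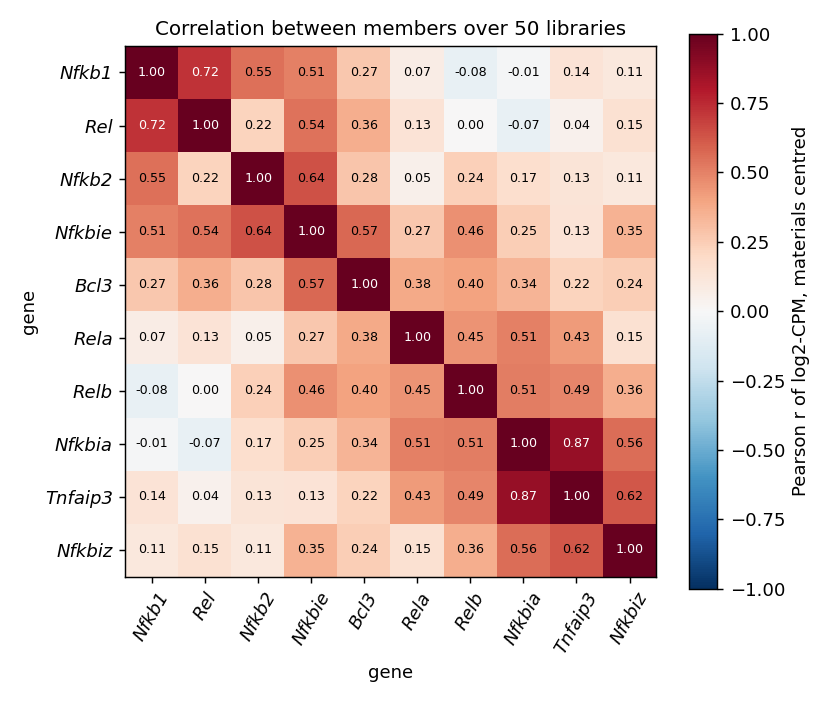
Pearson r between each pair of the 10 genes over 50 libraries, from log2 CPM with the mean of each material removed, drawn as a heat map with r in colour. Nfkbia with Tnfaip3 (0.87) and Nfkb1 with Rel (0.72) are the pairs described, and Nfkb1 with Nfkbia is near 0.

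The genes whose levels followed each member most closely among 16808, by the same r over the 50 libraries, were mostly outside the pathway. For Nfkbia they were Wdtc1 (0.84), Klf6 (0.82) and Rab11fip1 (0.82), and for Tnfaip3 Rora (0.82), Dusp5 (0.81) and Fam107b (0.80). Nfkb1 was followed by Sipa1 (0.89), Prrc2a (0.82) and Thrap3 (0.82), Rel by Gmip (0.84), Arid3b (0.83) and Dock10 (0.81), and Rela by Cyth1 (0.73), Btg1 (0.71) and Ezr (0.70). Nfkb2 was followed by Ptbp1 (0.77), Nacc1 (0.75) and Mcmbp (0.75), and Relb by the chemokine receptor-like gene Ccrl2 (0.76), Marcksl1 (0.70) and Mcemp1 (0.69). For Nfkbie they were H2-M3 (0.76), Etv6 (0.75) and Fam111a (0.75), for Bcl3 Stat3 (0.78), Slfn2 (0.68) and Runx3 (0.67), and for Nfkbiz the activation marker Rgs1 (0.65), its own family member Nfkbid (0.65) and Zc3h12a (0.63), the lowest top value of the 10.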

How the data were processed

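Estimated counts per gene for all 52 libraries were deposited by the authors as 1 merged set named for the quantifier salmon. Per the labels' protocols the libraries were made from polyA RNA with a stranded mRNA kit, and per the submitters' processing notes STAR 5.1 and GRCm38 were used. No label states the quantifier's settings, its annotation or its use of strand, so reads shared with overlapping or near-identical genes may have been split. Counts were rounded (10.982 percent of values were fractional). The 10 members and all gene lists were chosen with earlier results of these data known.

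Groups came from the treatment and tissue labels. A single edgeR 4.0.16 fit (R 4.3.3) per material held its 3 treatments: genes passing filterByExpr (minimum count 10, total 15), TMM scaling, robust quasi-likelihood test and Benjamini-Hochberg adjustment over all genes tested, called under 0.05. Per-library values are CPM scaled within the material. Levels across materials and the differences of effect used all 50 libraries together. The latter used voomLmFit (limma 3.58.1) with sample weights by material. Libraries of the same treatment and replicate number formed a random block (correlation −0.02). Per-kilobase values used union exon lengths from GENCODE on GRCm38. The libraries labelled lymph node, vehicle replicate 3 and tumor, ATOR-4066 replicate 3 were left out, since their marker genes go against their labels. No library pair looked duplicated (90 pairs, lowest chi-square per gene 10.97). The fits were tested on simulated counts.

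Alternatives were DESeq2 1.42.0, RLE scaling, no filter on low counts, fits of only the groups compared, voom with sample weights and a replicate block. Others were each library left out, 12 haemoglobin genes removed in blood, the libraries against their labels kept, and, chosen after seeing the data, library totals without scaling factors. All 10 members are named in each comparison within a material and between materials. From each of 4 pathway lists (kinases and adaptors, other inhibitors, response genes, non-canonical response genes) at most 4 called genes of smallest p are named per comparison, or, where none was called, the 2 of smallest p. For each member the 3 genes of highest r are named.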

Additional observations from a re-analysis of the deposited data

Results flagged for a closer look

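Among 100 groups of a member in a material and treatment with 4 or 5 libraries, 6 had a library set apart from the rest of its group, where chance sets apart about 1 in 20. In tumor, CD40 mAb replicate 5 stood above the other 4 for Nfkbia (196 CPM against 114 to 131), Tnfaip3 (90.7 against 38.4 to 50.3) and Nfkbiz (32.0 against 16.4 to 19.1). The same library had T cell markers of 1339 CPM against 38.1 to 154 in the other 4, and their part in these values was not tested. In lymph node, vehicle replicate 1 was low for Bcl3 (51.3 CPM against 67.2 to 70.2). In blood, ATOR-4066 replicate 4 was high for Nfkb2 (14.9 against 11.4 to 11.9). In tumor, vehicle replicate 4 was low for Rela (90.8 against 97.0 to 98.3).

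Of 60 differences of an antibody's effect between materials, 7 passed the limma test. For ATOR-4066 these were Nfkbia (0.80 on the log2 scale) and Tnfaip3 (1.49) in sorted cells minus tumor, Nfkbia (0.75) and Nfkb1 (−0.60) in tumor minus lymph node, and Tnfaip3 (1.07) in lymph node minus blood. For CD40 mAb they were Nfkb2 (−0.83) in tumor minus lymph node and Nfkb1 (0.65) in lymph node minus blood.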

How the results depend on the processing

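Of the members' results recomputed, 1967 kept their direction and their side of the threshold. Most of these were values that passed the test in neither fit, so this count says little about the calls. With the direction kept, 63 values were called only in the alternative fit and 48 only in the reported one. Another 87 values changed sign while passing no test in either fit. Another 5 values reversed, all in blood on library totals without scaling factors. After CD40 mAb these were Relb (−1.53), Nfkbia (−1.76) and Bcl3 (−1.54), which were called only on those totals. Between the antibodies they were Relb (0.25) and Tnfaip3 (0.20), which were called with scaling. On those totals 9 members were called after ATOR-4066, 10 after CD40 mAb and 3 between the antibodies in blood. Over all genes 9172, 10972 and 2707 were called there in the same order. In sorted cells 2 members were called after CD40 mAb and 1 between the antibodies, where the share of higher calls over all genes went from 48.9 to 36.7 percent and from 64.1 to 71.0 percent. DESeq2 called 3 members after ATOR-4066, 2 after CD40 mAb and 2 between the antibodies in sorted cells, 4 after ATOR-4066 and 2 between the antibodies in tumor, and 1 after ATOR-4066 in lymph node. Over all genes it called 1464 after CD40 mAb and 2960 between the antibodies in sorted cells, and 504 after ATOR-4066 in lymph node. Voom with sample weights called 4 (ATOR-4066) and 2 (CD40 mAb) in sorted cells, and 7 (ATOR-4066) and 3 (between the antibodies) in tumor. Over all genes it called 4465 for ATOR-4066 in sorted cells, and 4946 and 857 in the same tumor comparisons. With no filter on low counts 3 were called after ATOR-4066, 2 after CD40 mAb and 1 between the antibodies in sorted cells, and 1 between the antibodies in blood. Fits of only the groups compared called 3 after ATOR-4066 and 2 after CD40 mAb in sorted cells, 4 after ATOR-4066 in tumor and 1 between the antibodies in blood. With the libraries against their labels kept, 0 were called after ATOR-4066 in tumor and 0 in the differences tumor minus lymph node (each antibody) and lymph node minus blood (ATOR-4066). Without sample weights 3 differed for ATOR-4066 and 2 for CD40 mAb in sorted cells minus tumor and 0 in lymph node minus blood for each antibody. In an edgeR fit over all materials the counts were 2 for CD40 mAb in sorted cells minus tumor, 3 for ATOR-4066 there, 1 and 0 for ATOR-4066 and CD40 mAb in tumor minus lymph node and 0 for ATOR-4066 in lymph node minus blood. The cause of each change was not tested.

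Same-numbered libraries did not deviate together (correlations of −0.06 to 0.11 in sorted cells, −0.34 to 0.36 in tumor, −0.39 to 0.31 in lymph node and −0.22 to 0.14 in blood), so the number is not read as a pairing. With the number as a block, 2 members were called after ATOR-4066 in sorted cells (Nfkbia 0.0172, Tnfaip3 0.0463), 0 after CD40 mAb there, 0 in tumor, and 0, 1 and 0 in blood after ATOR-4066, after CD40 mAb and between the antibodies.

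With each library left out, the members called ranged from 2 to 3 after ATOR-4066, 0 to 2 after CD40 mAb and 0 to 2 between the antibodies in sorted cells, 0 to 1, 0 to 0 and 0 to 2 in tumor, 0 throughout in lymph node, and 0 to 1, 1 to 4 and 1 to 2 in blood. Counts over all genes moved further, from 1090 with the block to 4465 by voom for ATOR-4066 in sorted cells (1977 as reported, and 627 to 2525 with 1 library left out). In the same order they were 14 to 1464 for CD40 mAb (182, 2 to 272), 3 to 2960 between the antibodies (1372, 105 to 2422) in sorted cells. They were 0 to 4946 for ATOR-4066 in tumor (243, 0 to 158), 0 to 857 between the antibodies in tumor (6, 1 to 314), and 6 to 9172 for ATOR-4066 in blood (53, 0 to 106). Between the antibodies in blood they were 2 to 2707 (1593) and after CD40 mAb 3723 to 10972 (4219). DESeq2 raised the lymph node counts to 504, 1755 and 135 for ATOR-4066, CD40 mAb and between the antibodies (0, 12 and 3 as reported) and that of CD40 mAb in tumor to 33 (0). For the differences they were 1759 to 4306 (2159) and 19 to 1152 (86) in sorted cells minus tumor for ATOR-4066 and CD40 mAb. They were 21 to 1880 (1813) and 0 to 1225 (1176) in tumor minus lymph node, and 16 to 208 (189) and 1321 to 4993 (4893) in lymph node minus blood. The order of the 4 materials for each member was the same with TMM scaling, with haemoglobin genes removed and with RLE scaling, the ones tried for levels. Members had between 39 and 49919 counts per library, and between 39 and 2180 in blood, where counting error weighs most.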

Other observations

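The library labelled tumor, ATOR-4066 replicate 3, whose markers go against its label, had 238 CPM of Nfkbia, 85.9 of Tnfaip3, 242 of Nfkb1, 236 of Nfkb2, 89.1 of Rel, 125 of Rela and 113 of Relb. Its Rel and Nfkb1 levels were above those of all 13 other tumor libraries, where Rel reached at most 39.7 and Nfkb1 at most 182. Its Nfkbia level lay within the range of the other ATOR-4066 tumors.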
